A study of Mus musculus with 6 samples.

Results

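Neurotrophins and the GDNF family ligands are secreted survival and growth factors, and the genes of their ligands and receptors are described here in sorted mouse retinal ganglion cells, the output neurons of the retina. The family was taken as Bdnf, Ntf3, Ntrk2, Ntrk3, Ngfr, Ret, Gfra1, Gfra2 and Gfra3. A probe set was counted when the array annotation mapped it to one of these genes and to no other. That gave 32 probe sets for 8 of the 9 genes, out of 45037 probe sets that are not controls and 18193 genes in all. Ntf3, the gene of neurotrophin-3, has no probe set of its own in that annotation and was not analysed here. The probe set of a gene that was brightest on average (log2, 6 arrays) leads its account, and every other one is counted too.

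Brain-derived neurotrophic factor (Bdnf) signals through the receptor tyrosine kinase TrkB (Ntrk2), and neurotrophin-3 signals through TrkC (Ntrk3). The receptor p75 (Ngfr) binds all neurotrophins and can promote survival or death. The GDNF family ligands bind the membrane-anchored co-receptors Gfra1 (preferring GDNF), Gfra2 (preferring neurturin) and Gfra3 (preferring artemin), and all of these signal through the receptor tyrosine kinase Ret. In rodents many ganglion cells die in early postnatal life, and both pathways are studied as sources of survival signals for them. Ret is known from subsets of retinal neurons that include ganglion cells.

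The arrays form 3 groups of 2, all made from retinas of C57BL/6 mice at postnatal day 6 that were dissociated with papain and sorted by flow cytometry. The Hb9 group holds cells positive for both GFP and Thy1 from the line named for Hb9, the Drd4 group holds such cells from the line named for Drd4, and the Thy1 group holds Thy1-positive cells without a GFP gate. Both GFP lines are transgenic and are known to mark types of ON-OFF direction-selective ganglion cells, Hb9 those that prefer upward motion and Drd4 those that prefer posterior motion. The Thy1 sort takes in ganglion cells in general. The series text says that both replicates of a cell type came from different litters, and pooling of animals on an array is neither stated nor denied there.

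The ganglion cell markers Rbpms and Pou4f1 were bright in all groups, with group means of 10.38 (Hb9), 10.58 (Drd4) and 10.46 (Thy1) for Rbpms and of 11.32 (Hb9), 11.55 (Drd4) and 11.48 (Thy1) for Pou4f1 on the log2 scale. Of 12 measured markers, Nefm passed as higher than in the Thy1 sort in Hb9 (0.57) and Drd4 (0.67). In Drd4 the Thy1 gene (0.52) and Pou4f3 (0.77) also passed as higher, and Isl1 as lower (-1.74). Between the lines Isl1 was higher (1.93) and Pou4f3 lower (-1.16) in Hb9. No other marker passed, and Pou4f3 was below background on both Hb9 arrays. The array medians lay between 45.5 and 47.7 intensity units. A background level was set on each array at the brightest of 27 bacterial control probe sets, at log2 values of 4.95 to 5.38, and 68.2% to 78.9% of genes per array lay above it. Over the microglial list of 13 measured genes the summed intensity was 1817 and 2270 on the Hb9 arrays, 3265 and 1141 on the Drd4 arrays, and 12626 and 7364 on the Thy1 arrays, with 9 to 13 of 13 genes above background. The 14 pericyte and endothelial genes summed to 2333 and 1938 in Hb9, 1495 and 646 in Drd4, and 8363 and 9468 in Thy1, with 6 to 11 of 14 above background. Among the defining genes, C1qa (microglia) and Rgs5 (pericytes) averaged 6.81 and 10.27 in Hb9, 7.11 and 7.26 in Drd4, and 9.61 and 12.49 in Thy1 (log2). In each line 12 of 13 microglial genes passed as lower than in Thy1, with list medians of -2.35 in Hb9 and -2.28 in Drd4. Of the pericyte and endothelial genes 5 of 14 passed as lower in Hb9 and 6 in Drd4, with medians of -0.48 and -0.50. Their differences were uneven, from -3.27 to 0.13 in Hb9 and from -5.24 to 0.11 in Drd4. The 11 genes of dividing cells summed to 756 and 874 in Hb9, 862 and 664 in Drd4, and 1370 and 2153 in Thy1, with 3 to 10 of 11 above background, and 5 of 11 passed as lower in Hb9 and 7 in Drd4 than in Thy1. The 15 genes of Muller glia and progenitors summed to 4424 and 3989 in Hb9, 4720 and 4601 in Drd4, and 4571 and 5004 in Thy1, with 7 to 11 of 15 above background. Of its defining genes Rlbp1 was below background on all 6 arrays, while Glul averaged 10.16 in Hb9, 10.43 in Drd4 and 10.46 in Thy1 (log2). Within that list Vim was lower than in Thy1 by -1.73 in Hb9 and -2.00 in Drd4, and Apoe by -2.56 and -3.01 (adjusted p of 0.00677 or less in limma). These were its only lower calls, while 1 gene of the list passed as higher than in Thy1 in Hb9 and 2 in Drd4. The list medians were -0.03 in Hb9 and -0.065 in Drd4. Over all genes 3.52% passed as higher and 3.19% as lower in Hb9, and 1.51% and 3.96% in Drd4. The 11 amacrine cell genes summed to 492 and 510 in Hb9, 563 and 515 in Drd4, and 551 and 523 in Thy1. Of these, 2 to 5 of 11 were above background, and Gad1, a defining gene, was below it on all 6 arrays.

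The family separated the groups mainly through Ret, which was 2.30-fold higher in Drd4 cells than in the Thy1 sort and 2.78-fold higher in Drd4 than in Hb9 cells. Ntrk3 was 1.70-fold lower in Drd4 cells than in the Thy1 sort. Gfra2, a co-receptor of Ret, ran the other way from Ret between the lines and was 2.06-fold higher in Hb9 than in Drd4 cells. Bdnf, Ntrk2, Ngfr, Gfra1 and Gfra3 did not pass in any comparison. These calls come from limma fitted to all 18193 genes, with p-values adjusted by Benjamini-Hochberg and a threshold of 0.05. A value after ± is a standard error where it follows a log2 difference and an SD over n = 2 arrays where it follows a level, and intervals are 95% intervals.

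Of the 8 genes, 0 passed in Hb9 against Thy1, where 6.71% of all genes did (3.52% higher, 3.19% lower), and 1 of the 8 had an unadjusted p under 0.05 in limma. Over all genes the share with an unadjusted p under 0.05 was 23.1% in Hb9 against Thy1, 14.5% in Drd4 against Thy1 and 19.7% in Hb9 against Drd4. In Drd4 against Thy1 2 of 8 passed (Ret higher, Ntrk3 lower), against 5.47% of all genes (1.51% higher, 3.96% lower). In Hb9 against Drd4 2 of 8 passed (Gfra2 higher, Ret lower), against 6.12% of all genes (4.06% higher, 2.06% lower). The median log2 difference over the 8 genes was -0.11 for Hb9 minus Thy1, -0.11 for Drd4 minus Thy1 and 0.12 for Hb9 minus Drd4, beside 0.04, 0.02 and 0.04 over all genes. Both comparisons with Thy1 use the same Thy1 arrays. With all 32 probe sets and adjustment over 45037, 1 passed in Hb9 against Thy1 (0 higher, 1 lower), where 6.03% of all probe sets did (2.49% higher, 3.54% lower). In Drd4 against Thy1 4 passed (1 higher, 3 lower), against 3.77% (1.23% higher, 2.54% lower). In Hb9 against Drd4 3 passed (2 higher, 1 lower), against 6.49% (3.12% higher, 3.37% lower). Of the 32, 13 were above background on all 6 arrays and 9 on none.

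**Figure D1:**
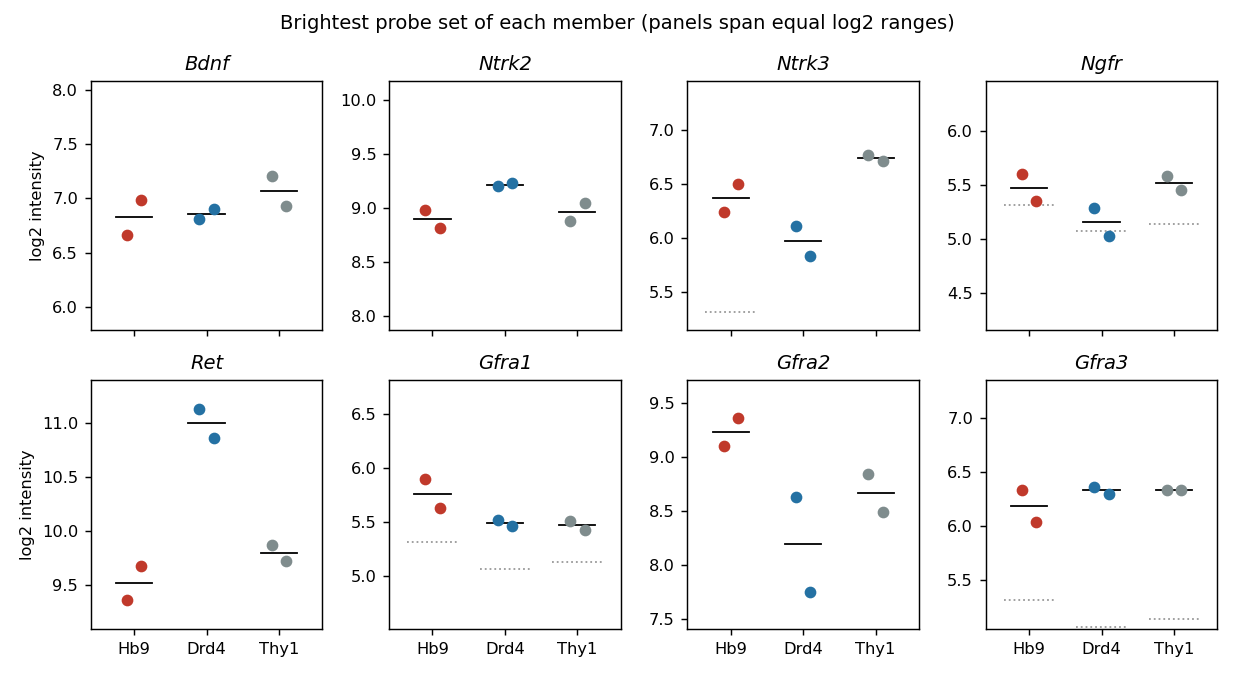
Log2 intensity (y axis) of the brightest probe set of each measured family gene in the Hb9, Drd4 and Thy1 groups (x axis), with 1 point per array, a black bar at the group mean and a dotted line at the mean background level of the group where it falls within the panel. All panels span the same log2 range; both Drd4 arrays lie above the other 4 arrays for Ret, and both Thy1 arrays lie above the other 4 for Ntrk3.

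Among the ligands, Bdnf was read by 2 probe sets. Its leading probe set (1422169_a_at) had intensities of 101.5 and 126.5 in Hb9 cells, 112.0 and 119.3 in Drd4 cells, and 147.6 and 122.3 in the Thy1 sort. The lines overlapped each other, and the differences of -0.25 ± 0.17 for Hb9 minus Thy1 and -0.22 ± 0.17 for Drd4 minus Thy1 did not pass (adjusted p = 0.443 and 0.689 in limma). Their 95% intervals ran from -0.63 to 0.14 and from -0.60 to 0.16. The second probe set (1422168_a_at) lay near background, at 35.6 and 36.6 in Hb9, 28.2 and 44.6 in Drd4, and 38.5 and 44.8 in Thy1.

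Ntrk2, the gene of the Bdnf receptor TrkB, was clearly above background in all groups. Its leading probe set (1458622_at) read 504.7 and 450.5 in Hb9 cells, 588.6 and 602.8 in Drd4 cells, and 470.5 and 530.4 in the Thy1 sort. Both Drd4 arrays were therefore above the other 4, while Hb9 and Thy1 overlapped. The differences were -0.07 ± 0.15 for Hb9 minus Thy1, 0.25 ± 0.15 for Drd4 minus Thy1 and -0.32 ± 0.15 for Hb9 minus Drd4, and none passed (adjusted p = 0.838, 0.523 and 0.264 in limma).

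Of 8 Ntrk2 probe sets, 4 were above background on every array, and they did not all move together. In 1435305_at the intensities were 235.0 and 233.8 in Hb9, 302.0 and 381.9 in Drd4, and 267.8 and 336.1 in Thy1. In 1437560_at they were 182.9 and 198.2 in Hb9, 261.7 and 311.6 in Drd4, and 246.2 and 262.1 in Thy1. Hb9 was thus the lowest group in both, by 0.54 and 0.58 on the log2 scale relative to Drd4, without passing over all probe sets (adjusted p = 0.116 and 0.0569 in limma). In the remaining one, 1420838_at, Hb9 was the highest group at 274.7 and 237.5, against 208.6 and 230.7 in Drd4 and 212.8 and 230.1 in Thy1. TrkB is known to exist as full-length and truncated forms, and which of them each probe set reads was not analysed here.

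Ntrk3, the gene of the neurotrophin-3 receptor TrkC, had its lowest level in Drd4 cells. Its leading probe set (1433825_at) read 75.7 and 90.6 in Hb9, 69.2 and 57.0 in Drd4, and 108.8 and 104.9 in Thy1. No group overlapped another, with Thy1 highest and Drd4 lowest. Drd4 was lower than Thy1 by a log2 difference of -0.77 ± 0.16 (adjusted p = 0.0202 in limma, 95% interval -1.13 to -0.41), and this difference was the 618th lowest of 18193. Hb9 lay between them, at -0.37 ± 0.16 relative to Thy1 (adjusted p = 0.208) and 0.40 ± 0.16 relative to Drd4 (adjusted p = 0.202), so neither neighbour in that order differed beyond the threshold. Groups that do not overlap were common, at 41.1% of all genes for Drd4 and Thy1, 54.2% for Hb9 and Thy1, and 49.7% for Hb9 and Drd4.

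The Ntrk3 call against Thy1 was lost on leaving out each of 3 arrays in turn, with a larger standard error each time. The difference was -0.63 ± 0.20 without Drd4 replicate 2, -0.74 ± 0.21 without Thy1 replicate 1 and -0.79 ± 0.21 without Thy1 replicate 2. With all arrays it was -0.77 ± 0.16. The summed genes of microglia, pericytes and dividing cells were higher in the Thy1 sort, as given above, and their part in the Ntrk3 difference was not tested. In RNA from sorted pools, fewer cells of a type and less RNA per cell cannot be told apart.

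Of the other Ntrk3 probe sets, 2 also passed as lower in Drd4 than in Thy1. The first (1455917_at) read 42.9 and 41.4 in Hb9, 35.2 and 30.5 in Drd4, and 55.4 and 50.5 in Thy1, a difference of -0.69 for Drd4 minus Thy1 (adjusted p = 0.0233 over all probe sets in limma). The second (1447723_at) read 10.7 and 10.0 in Hb9, 13.1 and 12.9 in Drd4, and 30.3 and 43.7 in Thy1. That probe set was below background on all arrays of both lines and above it on 1 of 2 Thy1 arrays, so it gives only a bound of at least 1.08-fold lower in Drd4, and no fold for Hb9. It was also the only probe set of the family that passed in Hb9 against Thy1 (adjusted p = 0.000294 in limma). Of the 8 Ntrk3 probe sets, 2 had a positive and 6 a negative difference for Drd4 minus Thy1. The call of 1455917_at was also lost on leaving out Drd4 replicate 2, Thy1 replicate 1 or Thy1 replicate 2.

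Ngfr, the gene of p75, stayed close to the background level. Its brightest probe set (1454903_at) read 48.4 and 40.8 in Hb9, 39.0 and 32.6 in Drd4, and 48.0 and 43.9 in Thy1, and 1 of 2 Drd4 arrays was below background. Drd4 was below the other groups without passing, at -0.37 ± 0.15 against Thy1 (adjusted p = 0.290 in limma) and with Hb9 minus Drd4 at 0.32 ± 0.15 (adjusted p = 0.281). The other 2 Ngfr probe sets were below background on all 6 arrays.

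Ret, the signalling receptor of the GDNF family, showed the largest differences among the family's leading probe sets in both comparisons that involve Drd4. Its leading probe set (1436359_at) read 659.0 and 819.9 in Hb9 cells, 2240 and 1866 in Drd4 cells, and 936.0 and 847.5 in the Thy1 sort. Every Drd4 array was well above every other array, and both Hb9 arrays were slightly below both Thy1 arrays. Drd4 minus Thy1 was 1.20 ± 0.16 (adjusted p = 0.00132 in limma, 95% interval 0.85 to 1.55), which was the 76th highest difference of 18193. Hb9 minus Drd4 was -1.48 ± 0.16 (adjusted p = 0.000463, interval -1.82 to -1.13), the 78th lowest. Hb9 minus Thy1 was -0.28 ± 0.16 and did not pass (adjusted p = 0.328, interval -0.62 to 0.07).

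Both Ret calls were kept in all 17 alternatives that were run, with differences of 0.83 to 1.33 for Drd4 minus Thy1 and of -1.63 to -0.95 for Hb9 minus Drd4. The second Ret probe set (1421359_at) was dimmer, at 58.0 and 59.4 in Hb9, 73.8 and 84.6 in Drd4, and 54.2 and 60.1 in Thy1. Drd4 was again the highest group on both arrays, with a difference of 0.47 from Thy1 and of -0.43 for Hb9 minus Drd4, which did not pass (adjusted p = 0.164 and 0.137 over all probe sets in limma). The summed intensity of the 12 ganglion cell markers was 33725 and 32669 in Hb9, 31981 and 31018 in Drd4, and 29716 and 29707 in Thy1. The 7 horizontal cell genes summed to 924 and 681 in Hb9, 251 and 313 in Drd4, and 604 and 637 in Thy1, with 4 of 7 above background on each array. For Hb9 minus Drd4 1 of the 7 passed as higher, beside 4.06% of all genes. In limma 3 of the 7 had an unadjusted p under 0.05, all as higher, beside 19.7% of all genes in either direction. The list median was 0.34, beside 0.04 over all genes, and the differences ran from -0.13 to 2.92 (log2). The 8 bipolar cell genes summed to 3851 and 4412 in Hb9, 1772 and 1540 in Drd4, and 3509 and 3583 in Thy1, a difference that lay in Isl1, which ganglion cells also express. The part of these genes in the Ret difference was not tested.

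Gfra2, the co-receptor for neurturin, was highest in Hb9 and lowest in Drd4 cells. Its leading probe set (1433716_x_at) read 550.3 and 659.1 in Hb9, 396.9 and 216.2 in Drd4, and 458.8 and 359.3 in Thy1. The 2 Drd4 arrays differed from each other by more than either other pair, and the higher one fell within the Thy1 range. Drd4 replicate 2, the lower one, also had the lower sums of the Drd4 pair for microglial genes (1141 beside 3265) and for pericyte and endothelial genes (646 beside 1495), and the horizontal cell sums given above were highest in Hb9 and lowest in Drd4. The part of these genes in the Gfra2 difference was not tested. Hb9 minus Drd4 was 1.04 ± 0.26 (adjusted p = 0.0448 in limma, 95% interval 0.46 to 1.62). Hb9 was above Thy1 by 0.57 ± 0.26 and Drd4 minus Thy1 was -0.47 ± 0.26, neither of which passed (adjusted p = 0.226 and 0.492). The call between the lines was lost without Drd4 replicate 2 (difference 0.60, adjusted p = 0.141), without Hb9 replicate 1 (adjusted p = 0.122) or replicate 2 (0.204) and with quantile normalisation (0.0850) in limma. Without Drd4 replicate 1 the difference from Thy1 became -0.91 and passed (adjusted p = 0.0355 in limma).

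The suffix _x_at marks probe sets that may also bind other transcripts. A second such probe set of Gfra2 (1459847_x_at) read 177.1 and 200.4 in Hb9, 91.0 and 101.6 in Drd4, and 141.2 and 134.3 in Thy1, with no overlap between any groups. Its difference for Hb9 minus Drd4 was 0.97 and passed (adjusted p = 0.00452 over all probe sets in limma). The brightest probe set without that suffix (1425579_at) read 151.5 and 178.6 in Hb9, 107.4 and 108.6 in Drd4, and 161.3 and 135.5 in Thy1. Its difference of 0.61 did not pass (adjusted p = 0.0576 over all probe sets, and 0.0617 when it led the gene in place of the _x_at probe set). All 5 Gfra2 probe sets had a positive difference for Hb9 minus Drd4, and 2 of the 5 were below background on every array.

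Gfra1 and Gfra3, the co-receptors for GDNF and artemin, passed in no comparison. Gfra1 (1439015_at) read 59.6 and 49.7 in Hb9, 45.9 and 44.2 in Drd4, and 45.7 and 43.2 in Thy1, so that both Hb9 arrays were above the other 4. Its difference of 0.29 ± 0.14 for Hb9 minus Thy1 did not pass (adjusted p = 0.250 in limma, 95% interval -0.02 to 0.61). Of the 3 Gfra1 probe sets, 2 were below background throughout. Gfra3 (1418880_at, its only probe set) read 80.9 and 65.7 in Hb9, 82.2 and 78.8 in Drd4, and 80.6 and 80.8 in Thy1. Its 95% intervals were -0.49 to 0.19 for Hb9 minus Thy1 and -0.34 to 0.33 for Drd4 minus Thy1.

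**Figure D2:**
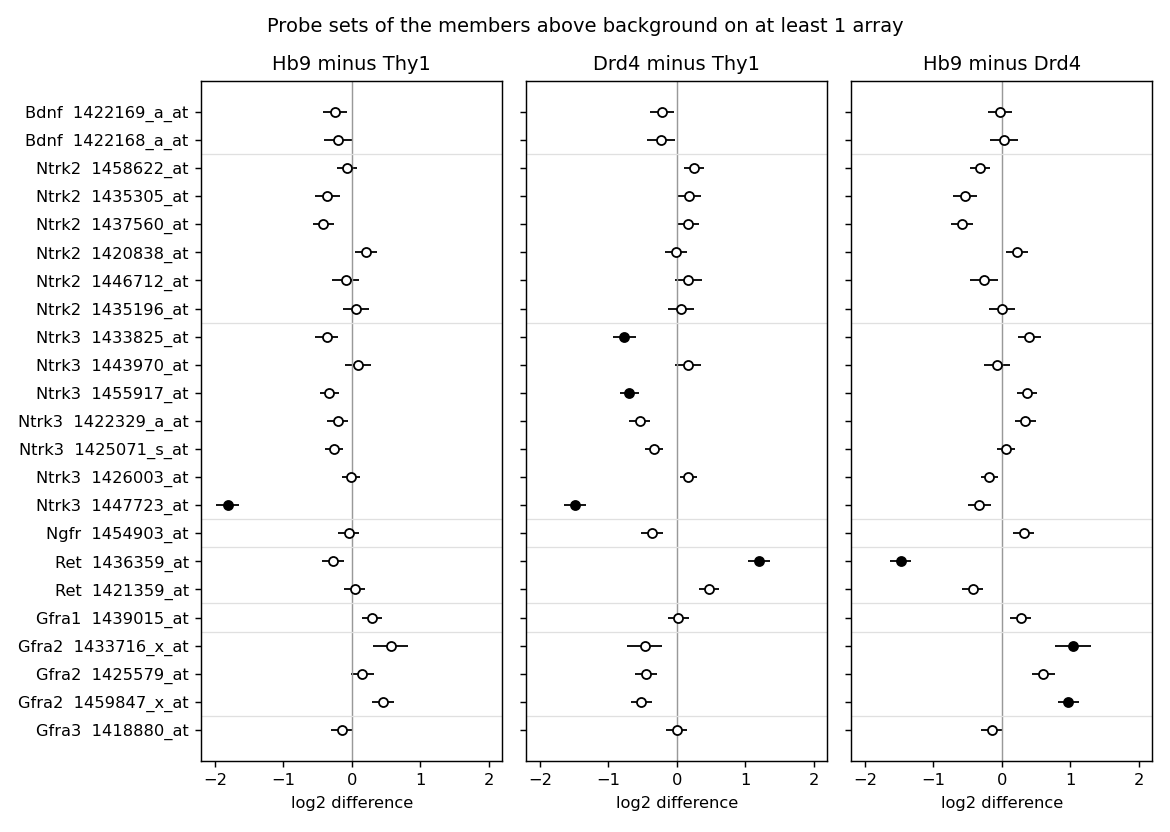
Log2 differences with standard errors (x axis) for the 23 probe sets of the family that exceeded background on at least 1 array (y axis), in Hb9 minus Thy1, Drd4 minus Thy1 and Hb9 minus Drd4. Filled points passed an adjusted p of 0.05 over all probe sets in limma; both Ret probe sets lie to the right for Drd4 minus Thy1, and the 3 Gfra2 probe sets lie to the right for Hb9 minus Drd4.

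The genes whose pattern over the 6 arrays lay closest to each changed member were taken by the root mean square difference of log2 intensity after each gene was centred on its own mean. For Ret these were Sgpp2 (0.112 log2 units), a phosphatase gene of sphingosine phosphate, the kinase gene Hunk (0.119) and the transporter family gene Slc35f4 (0.140). Sgpp2 was higher in Drd4 than in Thy1 by 1.16, Hunk by 1.31 and Slc35f4 by 1.07 on the log2 scale, and all 3 passed there and between the lines. These genes were picked for their likeness to Ret on the same arrays. Passing where Ret passed thus follows from that choice and is not a separate result. For Ntrk3 the nearest genes were Hacd4 (0.0634), the biliverdin reductase gene Blvra (0.0725) and the nuclear receptor corepressor gene Nrip1 (0.0755). For Gfra2 they were the potassium channel gene Kcna1 (0.162), the intracellular FGF homologue gene Fgf12 (0.165) and the metalloproteinase gene Pappa (0.186). The arrays share their groups, so 3 levels with 2 arrays each set these distances. Leaving out 1 array at a time kept 1 to 2 of the 3 genes for Ret, 0 to 1 for Ntrk3 and 0 to 3 for Gfra2.

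**Figure D3:**
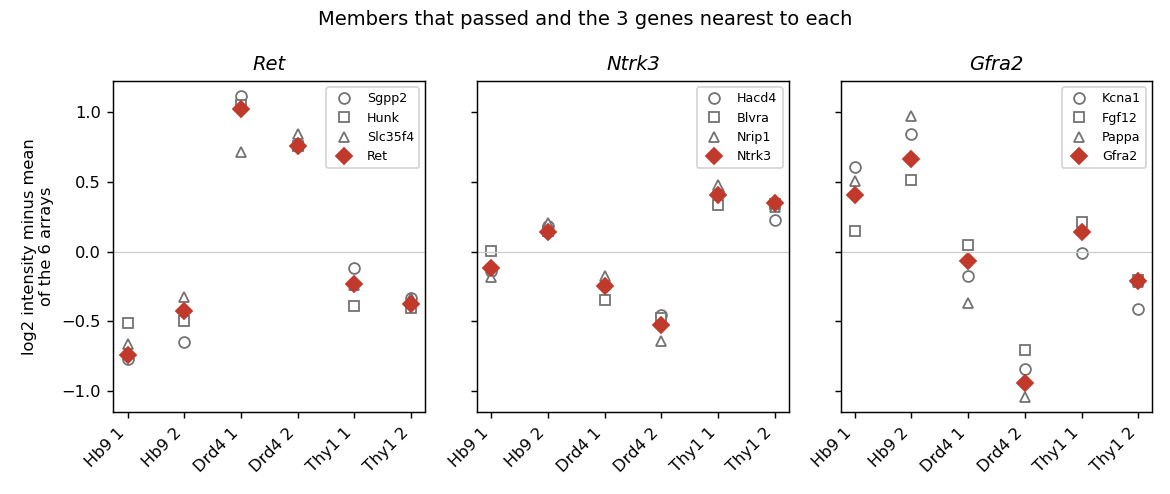
Log2 intensity minus the mean of the 6 arrays (y axis) on each array (x axis) for Ret, Ntrk3 and Gfra2 (filled diamonds) and the 3 genes nearest to each (open symbols). The Ret panel shows the 2 Drd4 arrays above 0 and the other 4 below, and the Gfra2 panel shows the gap between the 2 Drd4 arrays.

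Beyond the family, 124 of 144 other genes of these pathways were measured as the brightest probe set of a single gene. In Hb9 against Thy1, 2 of the 124 were higher and 6 lower, in Drd4 against Thy1 0 were higher and 12 lower, and in Hb9 against Drd4 6 were higher and 0 lower, against the shares of all genes called given above. Their median log2 differences were 0.03, 0.01 and 0.05, against 0.04, 0.02 and 0.04 over all genes. With quantile normalisation the counts higher and lower were 1 and 6 in Hb9 against Thy1. The 8 calls in that comparison became 2 without Hb9 replicate 1, 3 without Thy1 replicate 1, and 14 without either Drd4 replicate. In Hb9 against Drd4 the 6 calls became 3 without Hb9 replicate 1 or replicate 2. The 12 calls in Drd4 against Thy1 became 8 without Drd4 replicate 2 or Thy1 replicate 1, and 5 of the 17 alternatives put 1 gene among the higher ones.

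Of 5 other ligand genes, 0 passed in any comparison in limma and 0 had an unadjusted p under 0.05, and Artn (artemin), Pspn (persephin) and Ntf5 (neurotrophin-4) were below background on all 6 arrays. Nrtn, the gene of neurturin and thus of the preferred ligand of Gfra2, averaged 5.59 ± 0.09 in Hb9, 5.72 ± 0.11 in Drd4 and 5.62 ± 0.10 in Thy1 on the log2 scale (SD, n = 2 arrays each). Gdnf was above background on 1 of 6 arrays, in the Drd4 group.

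In Hb9 against Thy1 0 of 14 other receptors and co-receptors passed and 4 had an unadjusted p under 0.05 in limma, against 23.1% of all genes. Of the 14, 2 were lower in Drd4 than in Thy1 and 2 were higher in Hb9 than in Drd4, beside 3.96% and 4.06% of all genes. In both cases these were Sorcs1 and Sorcs3, sorting receptors of the Vps10p domain family, to which the p75 partner sortilin belongs. Sorcs1 read 6.75 and 7.36 in Hb9, 4.49 and 3.61 in Drd4, and 7.41 and 7.30 in Thy1 on the log2 scale. Both Drd4 arrays were below background, so only bounds are given, for the brightest probe set in the main fit. Sorcs1 was at least 4.86-fold lower in Drd4 than in Thy1 (adjusted p = 0.000102 in limma) and at least 3.96-fold higher in Hb9 than in Drd4 (adjusted p = 0.000192). Both calls were kept in the 17 alternatives. There the log2 differences ran from -3.74 to -1.51 and from 1.09 to 3.44, the smallest of which are under these bounds. Sorcs3 read 6.11 and 6.50 in Hb9, 5.48 and 5.29 in Drd4, and 6.83 and 7.03 in Thy1. It was lower in Drd4 than in Thy1 by -1.54 ± 0.17 and higher in Hb9 than in Drd4 by 0.92 ± 0.17 (adjusted p = 0.000542 and 0.0122 in limma), and the call between the lines was lost without Hb9 replicate 2 (0.100) and when a gene's probe sets were averaged (0.0943). Sort1, the gene of sortilin itself, averaged 8.74 in Hb9, 8.66 in Drd4 and 8.79 in Thy1.

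Of 23 receptor adaptors, 2 were lower in Hb9 and 4 in Drd4 than in the Thy1 sort, beside 3.19% and 3.96% of all genes. Sh2b3, an adaptor known best from blood and endothelial cells, was lower by -1.17 ± 0.16 in Hb9 and -1.36 ± 0.16 in Drd4 (adjusted p = 0.00331 and 0.000723 in limma), and 1 of 2 arrays of each line was above background. Shc4, an adaptor of the Shc family, was lower in Drd4 by -0.80 ± 0.16 and the docking protein gene Gab1 by -0.68 ± 0.15 (adjusted p = 0.0163 and 0.0229). Both calls were lost without Thy1 replicate 1 or replicate 2, that of Shc4 also without Drd4 replicate 1 and that of Gab1 also without Drd4 replicate 2, with adjusted p-values up to 0.0998 for Shc4 and 0.126 for Gab1. Plcg2, a phospholipase known from immune cells, was lower by -0.64 ± 0.15 in Hb9 and, named after its value was seen, by -0.62 ± 0.15 in Drd4 (adjusted p = 0.0360 and 0.0474 in limma). The Plcg2 call in Drd4 was lost in 11 of 17 alternatives and that in Hb9 in 4. Shc4 was higher in Hb9 than in Drd4 by 0.76 ± 0.16 (adjusted p = 0.0226), a call lost without either Hb9 replicate or Drd4 replicate 1 (up to 0.159). The part of the microglial, pericyte and dividing-cell genes in these differences from the Thy1 sort was not tested.

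Of 16 genes of ligand processing and release, Plat was lower in both lines than in the Thy1 sort, by -1.05 ± 0.15 in Hb9 and -1.30 ± 0.15 in Drd4 (adjusted p = 0.00432 and 0.000674 in limma). Plat encodes tissue plasminogen activator, which activates the plasmin that can cleave the Bdnf precursor. Its call in Hb9 was lost when the probe sets of each gene were averaged (adjusted p = 0.0554 in limma). Mmp9, a secreted metalloproteinase gene, read 6.98 and 6.78 in Hb9, 5.63 and 5.42 in Drd4, and 6.04 and 5.78 in Thy1, with no overlap between any groups. It was higher in Hb9 by 0.97 ± 0.16 than in Thy1 and by 1.36 ± 0.16 than in Drd4 (adjusted p = 0.00767 and 0.000778 in limma), and the first call was lost without Hb9 replicate 1 (0.0668).

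Of 22 genes of the ERK and PI3K branches, Sos2, an activator of Ras, was higher in Hb9 than in Thy1 by 0.78 ± 0.21 and than in Drd4 by 0.84 ± 0.21 (adjusted p = 0.0499 and 0.0407 in limma). Rps6ka3, a kinase gene downstream of ERK, was higher in Hb9 than in Drd4 by 0.72 ± 0.18 (adjusted p = 0.0464). The Sos2 calls were lost in 6 and 4 of 17 alternatives and the Rps6ka3 call in 5, among them without either Hb9 replicate. In Drd4 against Thy1 0 of the 22 passed, and 4 had an unadjusted p under 0.05, against 14.5% of all genes. Both counts include Pdk1, which is the gene of pyruvate dehydrogenase kinase 1 and not of these branches, and which is also among the 124 pathway genes. No gene among 15 p75 partners or 11 genes of receptor endocytosis and transport passed in any comparison, while 2 and 3 of them had an unadjusted p under 0.05 in Hb9 against Thy1, 1 and 1 in Drd4 against Thy1, and 2 and 1 in Hb9 against Drd4 in limma, beside 23.1%, 14.5% and 19.7% of all genes.

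Of 18 feedback and response genes, 3 were lower in Hb9 and 5 in Drd4 than in the Thy1 sort, beside 3.19% and 3.96% of all genes. Egr1 and Fos, transcription factor genes induced by many stimuli, differed from Thy1 by -1.53 ± 0.26 and -1.14 ± 0.22 in Hb9 and by -1.88 ± 0.26 and -1.68 ± 0.22 in Drd4 (adjusted p = 0.00845, 0.0163, 0.00169 and 0.00152 in limma). Etv5, a transcription factor gene known to respond to Ret signalling in mouse kidney, was below background on all arrays of both lines. Its brightest probe set was at least 1.66-fold lower in Hb9 and 1.97-fold lower in Drd4 than in Thy1 (adjusted p = 0.0104 and 0.00223 in limma). Over the 17 alternatives its log2 differences ran from -1.72 to -0.56 in Hb9 and from -2.15 to -0.54 in Drd4. The smallest of these are under the bounds. Named after their values were seen, the ERK phosphatase gene Dusp6 (-1.59 ± 0.34) and the ERK pathway inhibitor gene Spred1 (-1.19 ± 0.26) were lower in Drd4 (adjusted p = 0.0229 and 0.0237). In Hb9 the Egr1, Etv5 and Fos calls were lost without Hb9 replicate 1 or Thy1 replicate 1, and that of Fos also without Hb9 replicate 2 (adjusted p up to 0.110), and in Drd4 those of Dusp6 and Spred1 without Drd4 replicate 2 or Thy1 replicate 1, and that of Spred1 also without Thy1 replicate 2 (up to 0.168). The Dusp6 call was also lost with robust moderation (0.0756) and the Spred1 call when a gene's probe sets were averaged (0.0725). A list of 20 immediate-early genes shares Egr1, Egr2, Egr3, Fos, Arc and Junb with these 18. It summed to 4477 and 5012 in Hb9, 4907 and 4324 in Drd4, and 7941 and 6380 in Thy1, with 15 to 20 of 20 above background. Of the 20, 7 passed as lower than in Thy1 in Hb9 and 8 in Drd4, beside 3.19% and 3.96% of all genes. The part of these genes and of the other cells in the Thy1 sort was not tested. In Hb9 against Drd4 0 of the 18 passed and 5 had an unadjusted p under 0.05 in limma, against 19.7% of all genes.

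**Figure D4:**
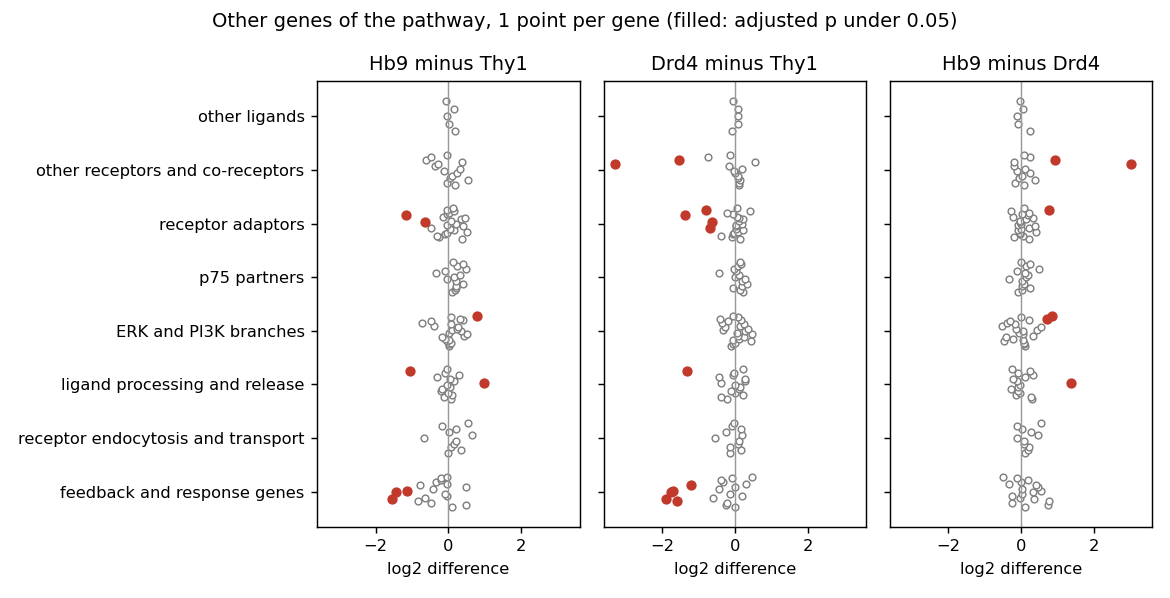
Log2 differences (x axis) of 124 other genes of the neurotrophin and GDNF family pathways, 1 point per gene and 1 row per list (y axis), for Hb9 minus Thy1, Drd4 minus Thy1 and Hb9 minus Drd4. Filled points passed an adjusted p of 0.05 over all genes in limma; the 12 filled points for Drd4 minus Thy1 all lie left of 0.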

How the data were processed

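The deposited table held 45101 probe sets on 6 mouse Affymetrix arrays as linear intensity values, which the authors made after 2 rounds of RNA amplification per the labels' protocols. Which software and normalization gave these intensities is not stated in the labels or the table. Probe sets were named through the platform annotation, in which 34945 had 1 gene, 932 several and 9160 none, and 34741 symbols matched RefSeq. Log2 intensities were tested with limma 3.58.1 in R 4.3.3 (a model of the 3 groups, trended moderation, 3 residual degrees of freedom), on the brightest probe set of each of 18193 genes and again on all 45037 probe sets that are not controls.

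Only 2 arrays per group limit the precision, and an exact permutation test of 2 against 2 could not go below p = 0.333. Where a gene was below background on every array of the dimmer group, its fold is given as a bound against the higher of each array's background level and the gene's own signal. All family genes are named in every comparison, and up to 3 called genes with the largest difference of each pathway list. The members and lists were chosen with earlier results of these data known. In tests on simulated data for Drd4 against Thy1 over 18193 genes, limma recovered 4.18% of genes changed by 0.5 log2 units, 55.2% of those changed by 1 and 91.2% of those changed by 2. Each simulation changed a smaller share of genes than the 5.47% called in the data, which makes the adjusted threshold stricter. These shares therefore do not give the recovery in the data themselves. Alternatives covered normalisation, the choice of probe set, dim genes, moderation, array weights, a replicate block, an offset, fewer groups and leaving out each array.

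Replicate numbers are not stated to pair samples across groups. No sequence is printed.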

Additional observations from a re-analysis of the deposited data

Results flagged for a closer look

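By the limma test of Hb9 minus Drd4, the lines differed in 2 of 8 family genes and 6 of 124 other pathway genes, beside 6.12% of all genes. For these 8 genes the differences of the lines from the shared Thy1 arrays were unequal. Ret differed by -1.48 between the lines, with -0.28 in Hb9 and 1.20 in Drd4 relative to Thy1. Gfra2 differed by 1.04, with 0.57 in Hb9 and -0.47 in Drd4. Sorcs1 had the largest gap, a fitted difference of 3.00 with -0.30 in Hb9 and -3.30 in Drd4, where the Drd4 level was below background and the fitted values are not bounds. Sorcs3 differed by 0.92, with -0.62 in Hb9 and -1.54 in Drd4. Mmp9 differed by 1.36, with 0.97 in Hb9 and -0.38 in Drd4. Shc4 differed by 0.76, with -0.04 in Hb9 and -0.80 in Drd4. Sos2 differed by 0.84, with 0.78 in Hb9 and -0.05 in Drd4. Rps6ka3 differed by 0.72, with 0.31 in Hb9 and -0.41 in Drd4. All these values are on the log2 scale. Groups of 2 arrays are too small for a search for outlying arrays.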

How the results depend on the processing

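Ret kept both of its calls in all 17 alternatives. The count of family genes called in Drd4 against Thy1 was 2 and ranged from 1 to 3 when single arrays were left out. In Hb9 against Drd4 it was 2, with 1 to 2 on leaving out single arrays, 1 with quantile normalisation and 1 without _x_at and _s_at probe sets, an alternative added after the data were seen. Over all family probe sets the count in Drd4 against Thy1 was 4 (2 to 4 without single arrays), and in Hb9 against Drd4 it was 3 (2 to 3), with 5 after centring the arrays on their medians and 5 without the intensity trend. The 8 pathway genes called in Hb9 against Thy1 became 14 in a fit of those groups alone and 2 to 14 without single arrays. The 6 in Hb9 against Drd4 became 3 to 8. Over all genes the counts of 1220, 995 and 1113 ranged over 315 to 1633 (Hb9 against Thy1), 666 to 922 (Drd4 against Thy1) and 411 to 1244 (Hb9 against Drd4) without single arrays. Where 1 array of a group is left, it is assumed to vary like the other groups, and the cause of these shifts was not tested.

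With the replicate number as a block, 0, 2 and 2 family genes and 1, 4 and 3 probe sets were called, and 8, 11 and 6 pathway genes, so no family call changed. Over all genes 1156, 985 and 1030 were called. Deviations of same-numbered arrays correlated at -0.19 between Hb9 and Thy1, 0.37 between Drd4 and Thy1 and -0.28 between Hb9 and Drd4, and nothing in the labels says that a number marks a shared litter.

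In 14 cases a difference near 0 that had not passed changed sign. Without single arrays, Hb9 minus Thy1 ranged from -0.154 to 0.0193 for Ntrk2 (0.0147 without Hb9 replicate 2), from -0.170 to 0.0767 for Ngfr (0.0169 without Thy1 replicate 1) and from -0.297 to 0.0028 for Gfra3. Drd4 minus Thy1 ranged from -0.0190 to 0.0620 for Gfra1 (-0.0048 without Drd4 replicate 1) and from -0.0352 to 0.0262 for Gfra3. Hb9 minus Drd4 ranged from -0.187 to 0.130 for Bdnf (0.0165 without Drd4 replicate 2) and from -0.293 to 0.0073 for Gfra3. With centred arrays Hb9 minus Thy1 was 0.0021 for Ngfr and Drd4 minus Thy1 was 0.0180 for Gfra3, and with quantile normalisation Drd4 minus Thy1 was 0.0595 for Gfra3. Ngfr and most second probe sets lie near background, where signal limits what could be seen.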
